A study of Mus musculus with 9 samples.

Results

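The 34 genes described here encode the constitutive subunits of the proteasome: the 14 genes of the core particle (Psma1 to Psma7 and Psmb1 to Psmb7) and the 20 genes named Psmc or Psmd, most of them subunits of the regulatory particle. They were taken by a rule on gene symbols, set with earlier results of these data known, out of 16409 genes in the authors' normalized table. All 34 passed the filter on low values, which kept 12555 genes. The proteasome is the protease that degrades proteins tagged with ubiquitin. Its core particle is a barrel of stacked rings in which α subunits gate the entrance and β subunits carry the catalytic sites, and its regulatory particle binds ubiquitin chains, removes them and unfolds the substrate with a ring of ATPases. In T cells an immunoproteasome can form in which inducible β subunits replace the constitutive catalytic ones, and the products feed antigen presentation as well as general protein turnover.

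The RNA came from regulatory T cells (Tregs, the suppressive CD4 T cells that express Foxp3) sorted as CD4+ GFP+ cells from tumours of wild-type C57BL/6 mice. Each group has 3 pools, and each pool joins cells of 3 to 4 mice. The tumours were Lewis lung carcinoma (LLC), a mouse lung cancer line that grows in C57BL/6 hosts. In the anti-β8 group the LLC cells expressed the integrin subunit β8 and the mice received the anti-β8 antibody C6D4 at 7 mg/kg by intraperitoneal injection, 2 times a week from day 7, with tumours collected on day 14; in the β8 isotype group the same kind of tumour was treated with an isotype control antibody; in the Mock group the tumours were mock-transfected LLC and the mice are labelled untreated. Integrin β8 binds latent TGF-β on cells and takes part in its activation. Neither the GFP reporter, the age of the mice nor the number of clones behind each LLC line is described in the sources used here. Because Mock mice received no antibody, β8 on the tumour and the isotype antibody cannot be told apart in β8 isotype against Mock. In anti-β8 against Mock, likewise, β8 on the tumour goes together with C6D4 treatment.

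The values are FPKM, that is, sequenced fragments divided by transcript length and by library size, which allow levels to be compared between genes. The number of reads behind them is unknown, so no counting error is given. Errors of FPKM are SD over the 3 pools of a group, and p-values rest on how far pools of mice differ within groups. For p-values and SE this spread is a single estimate per gene over all 3 groups. The spread of the anti-β8 pools therefore also enters β8 isotype against Mock. Likewise the spread of the Mock pools enters anti-β8 against β8 isotype, and that of the β8 isotype pools enters anti-β8 against Mock. Both were narrower than the spread of the anti-β8 pools, as given below. Foxp3 had 121, 135 and 121 FPKM in the anti-β8 pools, 98.3, 74.0 and 111 FPKM in the β8 isotype pools and 114, 89.96 and 93.8 FPKM in the Mock pools, in the unnormalized table. Of 6 Treg markers tested, Foxp3 and Cd3e had a log2 difference above 0 in anti-β8 against β8 isotype. Cd4, Il2ra, Ctla4 and Ikzf2 were below 0. In the normalized table Ctla4 averaged 503 ± 27.6 FPKM in anti-β8, 717 ± 129 FPKM in β8 isotype and 449 ± 97.1 FPKM in Mock. Ikzf2 averaged 42.1 ± 31.5 FPKM in anti-β8, 102 ± 12.5 FPKM in β8 isotype and 54.9 ± 6.78 FPKM in Mock. Anti-β8 pools 2 and 3 stood apart: 9772 and 9283 genes reached 1 FPKM there, against 11785 to 12177 genes in the 7 other libraries, and mitochondrially encoded transcripts made up 1.27% and 1.53% of FPKM, against 0.776% to 1.16%. In these bulk samples fewer cells of a type and less RNA per cell cannot be told apart.

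Proteasome genes were among the more abundant transcripts of these Tregs. The mean over 9 pools placed 24 of the 34 genes at or above the 90th percentile of the 12555 genes, with a median percentile of 93.8. Psma7, an α-ring subunit, was highest, at percentile 97.8, and Psmd5, a chaperone that helps assemble the regulatory particle, was lowest, at percentile 48.0. The 34 genes together took 0.935 ± 0.101% of all normalized FPKM in anti-β8, 0.874 ± 0.0266% in β8 isotype and 0.837 ± 0.0300% in Mock (SD, n = 3 pools each). The anti-β8 pools lay above the Mock pools, with the lowest anti-β8 pool at 0.874% and the highest Mock pool at 0.871%, and the pools overlapped in the other two comparisons. This share was not tested.

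As a group, core genes were higher than regulatory genes in every pool. The median level of the 14 core genes lay between 230.1 and 281 FPKM in the 9 pools, and that of the 20 Psmc and Psmd genes between 74.3 and 97.7 FPKM. The summed FPKM of the core genes over that of the Psmc and Psmd genes was 1.77, 1.93 and 2.01 in the anti-β8 pools, 1.77, 1.86 and 1.75 in the β8 isotype pools and 1.90, 2.00 and 1.89 in the Mock pools. All 3 β8 isotype pools lay below all 3 Mock pools in this ratio, with means of 1.79 ± 0.0572 and 1.93 ± 0.0590, while the anti-β8 pools (1.90 ± 0.123) overlapped both. With 3 pools against 3 an exact two-sided permutation test cannot give a p below 0.1, so the ratio is given without a test.

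**Figure D1:**
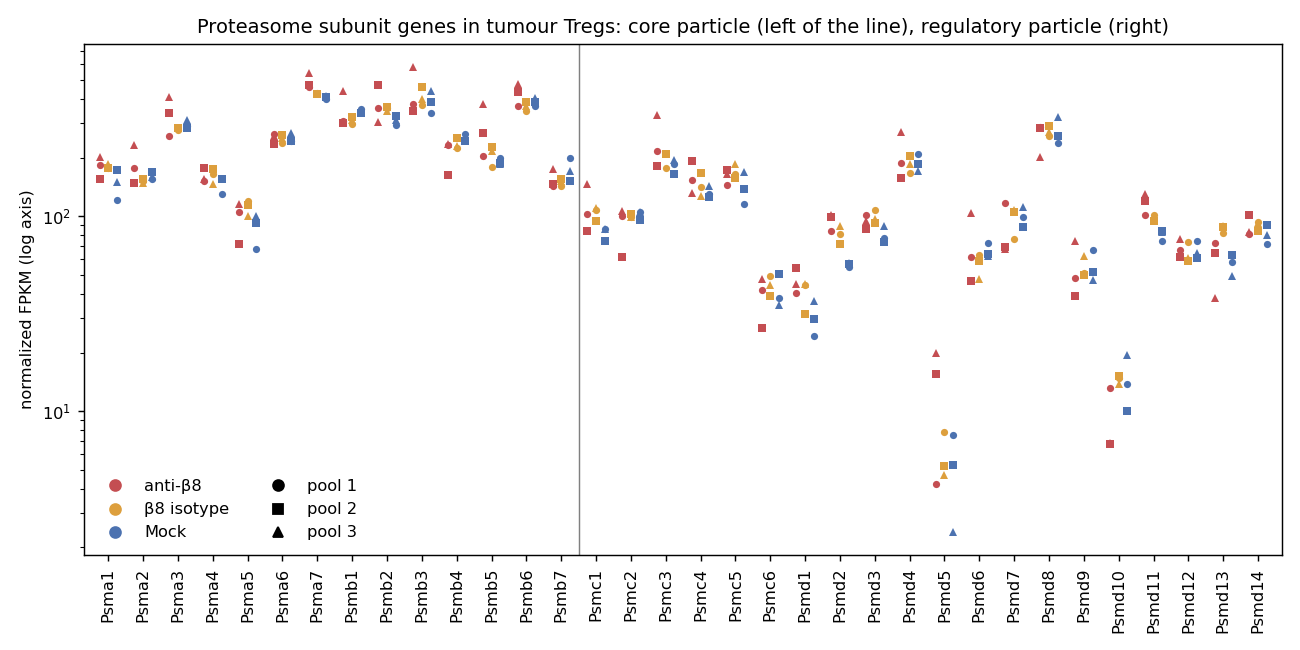
Normalized FPKM on a log axis for each of the 34 proteasome genes, with 1 point per pool (red anti-β8, orange β8 isotype, blue Mock; circle, square and triangle for pools 1, 2 and 3). The 14 core genes at the left of the vertical line sit higher than most of the 20 genes at its right, and Psmd5 and Psmd10 are the lowest pair.

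The promoters of the abundant core genes are shown because coordinate transcription of proteasome genes is known to run through short promoter elements, the antioxidant response element bound by Nfe2l1 and Nfe2l2 with small Maf proteins, and the CCAAT box bound by NF-Y. The 250 bases before the annotated start were taken from RefSeq on build GRCm38.p6 for 28 of the 34 genes, which have 30 promoters there. Psmb1, Psmb2, Psmb7, Psmc3, Psmd3 and Psmd7 had no entry. Both strands were searched for TGACNNNGC, the antioxidant response element core, and for CCAAT, and none of the 30 promoters found held both. Those printed belong to the 4 genes of highest mean in Mock that hold a match: Psma7 at chr2:180042465-180042714 on the minus strand, Psmb3 at chr11:97703184-97703433 on the plus strand, Psmb6 at chr11:70525107-70525356 on the plus strand and Psma3 at chr12:70974373-70974622 on the plus strand. Capitals mark the match.
Psma7: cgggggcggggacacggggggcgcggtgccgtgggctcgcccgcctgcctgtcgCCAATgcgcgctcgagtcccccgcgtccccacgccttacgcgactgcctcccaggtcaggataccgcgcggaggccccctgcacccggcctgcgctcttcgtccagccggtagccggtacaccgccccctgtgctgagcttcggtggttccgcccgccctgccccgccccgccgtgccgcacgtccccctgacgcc
Psmb3: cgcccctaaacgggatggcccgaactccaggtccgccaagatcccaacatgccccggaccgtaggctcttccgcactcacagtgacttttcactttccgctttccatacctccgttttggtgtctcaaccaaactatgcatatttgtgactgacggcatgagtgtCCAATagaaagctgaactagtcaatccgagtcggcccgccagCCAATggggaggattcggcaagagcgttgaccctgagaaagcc
Psmb6: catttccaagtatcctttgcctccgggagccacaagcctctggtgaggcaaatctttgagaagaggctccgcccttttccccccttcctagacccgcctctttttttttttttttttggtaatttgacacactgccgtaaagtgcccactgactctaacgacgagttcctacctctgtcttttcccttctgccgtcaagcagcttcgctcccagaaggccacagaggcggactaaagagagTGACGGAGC
Psma3: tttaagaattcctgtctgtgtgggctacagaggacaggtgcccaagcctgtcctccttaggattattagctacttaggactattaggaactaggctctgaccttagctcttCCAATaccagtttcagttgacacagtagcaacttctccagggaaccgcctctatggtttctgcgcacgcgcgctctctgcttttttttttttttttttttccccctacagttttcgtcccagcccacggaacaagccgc

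In Psma7 the CCAAT begins 196 bases before the start, in Psma3 139 bases before it, and in Psmb3 a pair of CCAAT boxes begins 85 and 43 bases before it. Psmb6 has its TGACNNNGC match in the last 9 bases before the start, and Psmb5, the other catalytic gene with a promoter entry, has one beginning 47 bases before its start. TGACNNNGC was found in 5 of the 30 promoters (16.7%), against 10.2% of all 32851 promoters of the same length, and CCAAT in 11 of the 30 (36.7%), against 33.8% of all. CCAAT was in 6 of 12 core promoters and 5 of 18 promoters of Psmc and Psmd genes. A match describes the letters of this window and is not a measured binding site.

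The α ring forms the outer face and gate of the core particle. Psma7 measured 458, 469.7 and 542 FPKM in anti-β8 pools 1, 2 and 3, 429, 422 and 425 FPKM in the β8 isotype pools and 400.4, 409 and 414 FPKM in the Mock pools. Its means were 490.0 ± 45.5 FPKM in anti-β8, 426 ± 3.76 FPKM in β8 isotype and 408 ± 6.73 FPKM in Mock, and every anti-β8 pool lay above every pool of both other groups. Psma3 averaged 335 ± 75.6 FPKM in anti-β8, 282 ± 4.69 FPKM in β8 isotype and 294 ± 14.7 FPKM in Mock. Psma6 averaged 252 ± 15.8 FPKM in anti-β8, 249 ± 11.9 FPKM in β8 isotype and 251 ± 14.5 FPKM in Mock, the steadiest of the 34 genes, since its highest pool was 1.14-fold its lowest. Psma2 averaged 186 ± 43.1 FPKM in anti-β8, 152 ± 3.52 FPKM in β8 isotype and 161 ± 6.46 FPKM in Mock. Psma1 averaged 179 ± 22.9 FPKM in anti-β8, 179 ± 4.75 FPKM in β8 isotype and 148 ± 25.7 FPKM in Mock. Both of these had their highest value in anti-β8 pool 3. Psma4 averaged 161 ± 13.6 FPKM in anti-β8, 162 ± 14.97 FPKM in β8 isotype and 146 ± 14.4 FPKM in Mock. Psma5, the lowest of the α genes, averaged 97.5 ± 22.6 FPKM in anti-β8, 111 ± 9.98 FPKM in β8 isotype and 86.9 ± 16.9 FPKM in Mock. The median of the α genes in a pool was 176 to 185 FPKM in β8 isotype and 156 to 172 FPKM in Mock, without overlap, and 177 to 232 FPKM in anti-β8.

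Of the β ring, 3 subunits cut peptide bonds: Psmb5 after hydrophobic, Psmb7 after basic and Psmb6 after acidic residues. Psmb5 measured 203, 266 and 374 FPKM in anti-β8 pools 1, 2 and 3, 179, 225 and 217 FPKM in the β8 isotype pools and 198, 187 and 186 FPKM in the Mock pools. Anti-β8 pool 3 was the highest and pool 1 lay within the range of the β8 isotype pools; the means were 281 ± 86.7 FPKM in anti-β8, 207 ± 24.9 FPKM in β8 isotype and 190.4 ± 6.92 FPKM in Mock. Psmb6 measured 368, 432 and 477 FPKM in anti-β8 pools 1, 2 and 3, 347, 387 and 368 FPKM in the β8 isotype pools and 369, 384 and 402 FPKM in the Mock pools. Its means were 426 ± 54.7 FPKM in anti-β8, 368 ± 20.1 FPKM in β8 isotype and 385 ± 16.5 FPKM in Mock, and the anti-β8 pools overlapped the pools of each other group. Psmb7 measured 143, 146 and 174 FPKM in anti-β8 pools 1, 2 and 3, 143, 155 and 152 FPKM in the β8 isotype pools and 199, 151 and 170.1 FPKM in the Mock pools. It was the lowest of the β genes, with means of 154 ± 17.4 FPKM in anti-β8, 149.7 ± 6.08 FPKM in β8 isotype and 173 ± 23.996 FPKM in Mock, and its groups overlapped.

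The other β subunits hold the ring together without an active site. Psmb1 measured 306, 299 and 441 FPKM in anti-β8 pools 1, 2 and 3, 298, 324 and 313 FPKM in the β8 isotype pools and 354, 339.9 and 343 FPKM in the Mock pools. Every β8 isotype pool lay below every Mock pool, and anti-β8 pool 3 was the highest of the 9; the means were 349 ± 79.8 FPKM in anti-β8, 312 ± 13.3 FPKM in β8 isotype and 345 ± 7.36 FPKM in Mock. Psmb4 measured 232, 162 and 235 FPKM in anti-β8 pools 1, 2 and 3, 224, 251 and 229 FPKM in the β8 isotype pools and 264, 242 and 249.8 FPKM in the Mock pools. The anti-β8 pools all lay below the Mock pools, pool 2 by the most, with means of 209.6 ± 40.97 FPKM in anti-β8, 235 ± 14.4 FPKM in β8 isotype and 252 ± 11.2 FPKM in Mock. Psmb2 averaged 378 ± 86.05 FPKM in anti-β8, 356 ± 7.43 FPKM in β8 isotype and 310.4 ± 16.7 FPKM in Mock, with every β8 isotype pool above every Mock pool. Psmb3, next in level to Psma7, averaged 435 ± 128 FPKM in anti-β8, 411 ± 46.6 FPKM in β8 isotype and 386 ± 49.7 FPKM in Mock.

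The base of the regulatory particle holds a ring of ATPases, Psmc1 to Psmc6, which pull the substrate into the core. Psmc3 was the highest, at 243 ± 78.2 FPKM in anti-β8, 198 ± 18.4 FPKM in β8 isotype and 182 ± 15.3 FPKM in Mock. Psmc5 averaged 160.0 ± 14.1 FPKM in anti-β8, 169 ± 14.4 FPKM in β8 isotype and 141 ± 27.3 FPKM in Mock. Psmc4 averaged 159 ± 30.2 FPKM in anti-β8, 145 ± 20.1 FPKM in β8 isotype and 133 ± 9.58 FPKM in Mock. A lower pair followed. Psmc1 averaged 111 ± 32.2 FPKM in anti-β8, 104 ± 8.71 FPKM in β8 isotype and 82.2 ± 6.23 FPKM in Mock, with all β8 isotype pools above all Mock pools. Psmc2 averaged 89.2 ± 24.1 FPKM in anti-β8, 101 ± 2.11 FPKM in β8 isotype and 102 ± 5.41 FPKM in Mock. Psmc6 stood lowest, at 38.7 ± 10.6 FPKM in anti-β8, 44.2 ± 5.36 FPKM in β8 isotype and 41.2 ± 8.17 FPKM in Mock, although the 6 ATPases enter the particle in equal number.

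Psmd1 and Psmd2 are the large scaffold subunits of the base, to which ubiquitin shuttle factors dock. Psmd2 measured 83.96, 98.6 and 101 FPKM in anti-β8 pools 1, 2 and 3, 81.2, 72.4 and 89.1 FPKM in the β8 isotype pools and 55.1, 57.2 and 57.7 FPKM in the Mock pools. Each Mock pool was below all 6 pools from β8-expressing tumours, and the means were 94.6 ± 9.34 FPKM in anti-β8, 80.9 ± 8.34 FPKM in β8 isotype and 56.7 ± 1.37 FPKM in Mock. Psmd1 measured 40.4, 54.4 and 45.2 FPKM in anti-β8 pools 1, 2 and 3, 44.6, 31.3 and 44.7 FPKM in the β8 isotype pools and 24.3, 29.7 and 36.7 FPKM in the Mock pools. The anti-β8 pools all lay above the Mock pools, whereas β8 isotype pool 2 lay among the Mock values; the means were 46.6 ± 7.14 FPKM in anti-β8, 40.2 ± 7.69 FPKM in β8 isotype and 30.3 ± 6.23 FPKM in Mock. Psmd4, the ubiquitin receptor between base and lid, measured 188, 157 and 272 FPKM in anti-β8 pools 1, 2 and 3, 166, 203 and 185 FPKM in the β8 isotype pools and 208, 185 and 171 FPKM in the Mock pools. Its highest and its lowest values were both in anti-β8 pools, and the means were 206 ± 59.2 FPKM in anti-β8, 185 ± 18.5 FPKM in β8 isotype and 188 ± 18.3 FPKM in Mock.

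The lid surrounds the deubiquitinase Psmd14, which cuts the ubiquitin chain from the substrate. Psmd14 measured 80.9, 102 and 83.1 FPKM in anti-β8 pools 1, 2 and 3, 93.3, 84.4 and 92.8 FPKM in the β8 isotype pools and 72.1, 90.3 and 80.02 FPKM in the Mock pools. The groups overlapped, with means of 88.7 ± 11.6 FPKM in anti-β8, 90.2 ± 4.99 FPKM in β8 isotype and 80.8 ± 9.16 FPKM in Mock. Psmd7, the partner of Psmd14 in the same dimer, measured 117, 69.4 and 67.5 FPKM in anti-β8 pools 1, 2 and 3, 76.6, 105 and 107 FPKM in the β8 isotype pools and 98.95, 88.2 and 111 FPKM in the Mock pools. Anti-β8 pool 1 was its highest value and anti-β8 pools 2 and 3 its lowest, with means of 84.7 ± 28.04 FPKM in anti-β8, 96.4 ± 17.2 FPKM in β8 isotype and 99.4 ± 11.3 FPKM in Mock. Psmd11, a lid scaffold subunit, measured 102, 119.7 and 129.7 FPKM in anti-β8 pools 1, 2 and 3, 102, 94.3 and 98.2 FPKM in the β8 isotype pools and 74.6, 83.8 and 82.7 FPKM in the Mock pools. All 6 pools from β8-expressing tumours lay above the 3 Mock pools, and the means were 117 ± 14.2 FPKM in anti-β8, 98.1 ± 3.74 FPKM in β8 isotype and 80.4 ± 5.06 FPKM in Mock. Psmd13, another scaffold subunit, measured 73.1, 64.5 and 38.2 FPKM in anti-β8 pools 1, 2 and 3, 82.2, 88.5 and 89.1 FPKM in the β8 isotype pools and 58.3, 63.001 and 49.5 FPKM in the Mock pools. The β8 isotype pools lay above all 6 other pools, with means of 58.6 ± 18.2 FPKM in anti-β8, 86.6 ± 3.86 FPKM in β8 isotype and 56.9 ± 6.86 FPKM in Mock.

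Among the remaining lid genes, Psmd3 measured 102, 85.7 and 94.1 FPKM in anti-β8 pools 1, 2 and 3, 108, 92.3 and 97.3 FPKM in the β8 isotype pools and 77.1, 73.6 and 88.7 FPKM in the Mock pools. The β8 isotype pools lay above the Mock pools, the anti-β8 pools overlapped both, and the means were 93.9 ± 8.12 FPKM in anti-β8, 99.2 ± 8.01 FPKM in β8 isotype and 79.8 ± 7.92 FPKM in Mock. Psmd6 measured 61.7, 46.4 and 104 FPKM in anti-β8 pools 1, 2 and 3, 62.9, 59.1 and 47.4 FPKM in the β8 isotype pools and 72.5, 64.3 and 62.8 FPKM in the Mock pools. Anti-β8 pool 3 was the highest and anti-β8 pool 2 the lowest of the 9, with means of 70.7 ± 29.9 FPKM in anti-β8, 56.5 ± 8.06 FPKM in β8 isotype and 66.5 ± 5.23 FPKM in Mock. Psmd8 was the most abundant of the 20 Psmc and Psmd genes, at 257 ± 49.5 FPKM in anti-β8, 273 ± 17.2 FPKM in β8 isotype and 272 ± 44.98 FPKM in Mock. Psmd12 averaged 68.3 ± 7.33 FPKM in anti-β8, 64.6 ± 7.87 FPKM in β8 isotype and 66.8 ± 7.20 FPKM in Mock, and its highest pool was 1.29-fold its lowest.

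The chaperones Psmd5, Psmd9 and Psmd10 assist assembly of the base and leave before the particle is complete. Psmd9 averaged 53.9 ± 18.2 FPKM in anti-β8, 54.7 ± 7.08 FPKM in β8 isotype and 55.3 ± 10.7 FPKM in Mock. Psmd10 measured 13.2, 6.83 and 6.85 FPKM in anti-β8 pools 1, 2 and 3, 14.8, 15.1 and 13.8 FPKM in the β8 isotype pools and 13.7, 10.05 and 19.5 FPKM in the Mock pools. Every anti-β8 pool lay below every β8 isotype pool, pools 2 and 3 most of all, while the Mock pools overlapped both; the means were 8.96 ± 3.68 FPKM in anti-β8, 14.6 ± 0.664 FPKM in β8 isotype and 14.4 ± 4.74 FPKM in Mock. Psmd5 measured 4.22, 15.6 and 19.96 FPKM in anti-β8 pools 1, 2 and 3, 7.81, 5.23 and 4.69 FPKM in the β8 isotype pools and 7.54, 5.31 and 2.41 FPKM in the Mock pools. The values of Psmd5 in anti-β8 pools 2 and 3 were the highest of the 9, whereas anti-β8 pool 1 lay among the other groups, with means of 13.2 ± 8.12 FPKM in anti-β8, 5.91 ± 1.67 FPKM in β8 isotype and 5.09 ± 2.57 FPKM in Mock. Its highest pool was 8.29-fold its lowest, and it was the single gene of the 34 to exceed 3-fold; 27 of the 34 stayed within 2-fold and 9 within 1.5-fold.

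**Figure D2:**
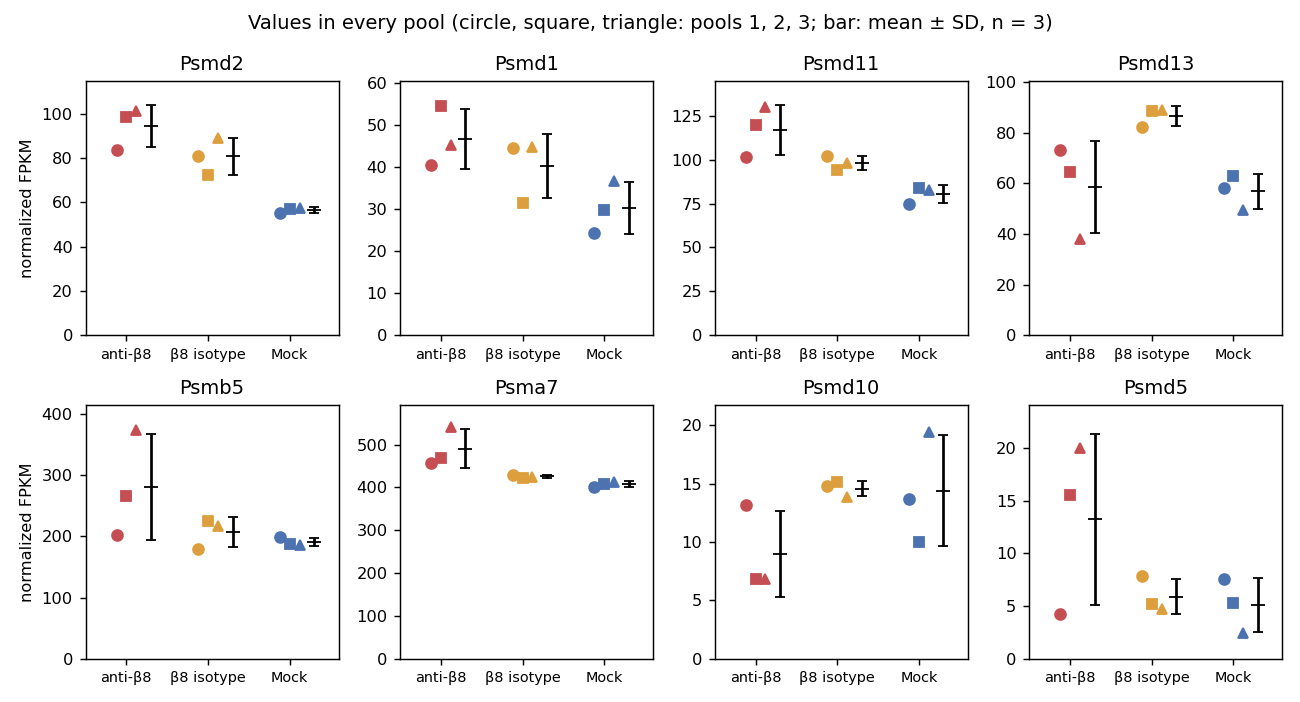
Normalized FPKM in every pool of 8 genes (circle, square and triangle for pools 1, 2 and 3; bars are mean ± SD, n = 3), with axes that start at 0. Psmd2 and Psmd11 are lower in the Mock pools than in the 6 others, Psmd13 is highest in β8 isotype, and Psmb5, Psmd10 and Psmd5 spread widely among the anti-β8 pools.

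The spread between pools was widest in anti-β8. The median SD of the log2 values over the 34 genes was 0.317 in anti-β8, 0.117 in β8 isotype and 0.138 in Mock, against 0.628, 0.282 and 0.352 over all 12555 genes. Core genes varied less than Psmc and Psmd genes in each group, with median SDs of 0.307, 0.0653 and 0.0745 for core genes and 0.401, 0.141 and 0.156 for Psmc and Psmd genes in anti-β8, β8 isotype and Mock. These sets differ in level: core genes were the higher of the 2 particles, and the median mean of all genes was 8.88 FPKM. Spread was not compared between genes of like level. Anti-β8 pool 3 held the highest of the 9 values for 18 of the 34 genes, 8 of them in the core, and the lowest values were most often in Mock pool 1 (11 genes) and anti-β8 pool 2 (9 genes). Such counts were not made over all genes, so they do not set the proteasome genes apart from others. Anti-β8 pools 2 and 3 are also those with few genes detected. The mean log2 value of the 34 genes was 6.93, 6.88 and 7.14 in the anti-β8 pools, 6.94, 6.95 and 6.94 in the β8 isotype pools and 6.82, 6.82 and 6.87 in the Mock pools, so that the Mock pools were the lowest 3 of the 9.

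β8 isotype against Mock compares Tregs from β8-expressing and mock-transfected tumours. No gene of the 34 passed the adjusted threshold, and the largest positive log2 differences were those of Psmd13 and Psmd2, at 0.60 ± 0.25 and 0.50 ± 0.17 (SE). The median log2 difference was 0.10 over the 34 genes, 0.025 over the core genes and 0.12 over the Psmc and Psmd genes, against 0.0087 over all genes tested. Differences lay above 0 for 21 of the 34 genes (7 of 14 core, 14 of 20 Psmc and Psmd), where 50.8% of all genes did. In limma, on log2(FPKM + 1) with adjustment over 12555 genes, 0 of the 34 genes were called, and 0.00796% of all genes were. At an unadjusted p under 0.05, 2 genes were higher, Psmd2 and Psmd13, and 0 were lower, against 2.99% and 2.58% of all genes.

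Psmd2 had an adjusted p of 0.645, Psmd13 of 0.779, and Psmd3, the next in order of p, a log2 difference of 0.31 ± 0.17 (adjusted p = 0.978). With limma on only the 6 libraries compared, which leaves out the spread of the anti-β8 pools, the smallest adjusted p was 0.143, for Psmd13. On the lower side stood Psmb7 at -0.20 ± 0.16 (adjusted p = 0.9995), Psmb1 at -0.15 ± 0.15 (adjusted p = 0.9995) and Psmd6 at -0.24 ± 0.28 (adjusted p = 0.9995). The other catalytic genes were at 0.11 ± 0.20 (adjusted p = 0.9995) for Psmb5 and -0.067 ± 0.12 (adjusted p = 0.9995) for Psmb6. The ubiquitin receptor Psmd4 was at -0.025 ± 0.20 (adjusted p = 0.9995) and the deubiquitinase Psmd14 at 0.16 ± 0.18 (adjusted p = 0.9995). Pools did not overlap, with β8 isotype above Mock, for 8 of the 34 genes (Psma1, Psma7, Psmb2, Psmc1, Psmd2, Psmd3, Psmd11 and Psmd13), against 8.98% of all genes, and with β8 isotype below Mock for Psmb1 alone, against 8.47%. The 95% interval of the difference lay within 1 log2 unit of 0 for 32 of the 34 genes, all but Psmd13 and Psmd5, and within 0.5 for 12.

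Anti-β8 against β8 isotype compares the antibody with its control in tumours of the same kind. Again 0 of the 34 genes passed the threshold, against 0.0637% of all genes, and the genes with the smallest p were Psmd13 on the lower and Psmb5 on the higher side. The median log2 difference was 0.053 over the 34 genes, 0.053 over the core genes and 0.015 over the Psmc and Psmd genes, against -0.036 over all genes. Differences lay above 0 for 20 of the 34 genes, 10 in the core and 10 outside it, where 47.1% of all genes did. At an unadjusted p under 0.05, 0 of the 34 were higher and Psmd13 alone was lower, against 3.97% and 6.2% of all genes.

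Psmd13 had a log2 difference of -0.61 ± 0.25 (adjusted p = 0.463), Psmd10 of -0.70 ± 0.37 (adjusted p = 0.523) and Psmb4 of -0.18 ± 0.16 (adjusted p = 0.703). With limma on only the 6 libraries compared, which leaves out the spread of the Mock pools, the smallest adjusted p was 0.654, for Psmd13. In that fit 0 of the 34 genes had an unadjusted p under 0.05. Without anti-β8 pools 2 and 3, the difference of Psmd13 was -0.24 and that of Psmd10 -0.13. Psmb5 had a log2 difference of 0.40 ± 0.20 (adjusted p = 0.514), Psma7 of 0.20 ± 0.11 (adjusted p = 0.534) and Psmb6 of 0.20 ± 0.12 (adjusted p = 0.568). The value of Psmb5 was -0.023 without anti-β8 pools 2 and 3. Psmb7 was at 0.040 ± 0.16 (adjusted p = 0.943), Psmd4 at 0.12 ± 0.20 (adjusted p = 0.840) and Psmd14 at -0.030 ± 0.18 (adjusted p = 0.965). Psma7 was the single gene with every anti-β8 pool above every β8 isotype pool, against 7.34% of all genes, and Psmd10 and Psmd13 were below without overlap, against 7.63%. The 95% interval lay within 1 log2 unit of 0 for 31 of the 34 genes, the exceptions being Psmd13, Psmd10 and Psmd5, and within 0.5 for 14.

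Anti-β8 against Mock compares antibody-treated β8-expressing tumours with untreated mock-transfected ones, and it shares its pools with both comparisons above, so its values are not independent of theirs. Here too 0 of the 34 genes were called, against 0.183% of all genes. The smallest p belonged to Psmd2, with 94.6 FPKM in anti-β8 and 56.7 FPKM in Mock on average and a log2 difference of 0.73 ± 0.17 (adjusted p = 0.134). The median log2 difference was 0.14 over the 34 genes, 0.15 over the core genes and 0.11 over the Psmc and Psmd genes, against -0.025 over all genes. Differences lay above 0 for 24 of the 34 genes, 11 of the 14 core genes and 13 of the other 20, where 48.3% of all genes did. At an unadjusted p under 0.05, 5 genes were higher (Psmd2, Psmd11, Psmb5, Psma7 and Psmd1) and 0 lower, against 6.09% and 7.87% of all genes.

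Psmd11 had a log2 difference of 0.53 ± 0.16 (adjusted p = 0.228), Psmb5 of 0.51 ± 0.20 (adjusted p = 0.312), Psma7 of 0.26 ± 0.11 (adjusted p = 0.321) and Psmd1 of 0.62 ± 0.25 (adjusted p = 0.322). With limma on only the 6 libraries compared, which leaves out the spread of the β8 isotype pools, the smallest adjusted p was 0.383, for Psmd2. In that fit 3 genes had an unadjusted p under 0.05, namely Psmb5, Psmd2 and Psmd11. Without anti-β8 pools 2 and 3, Psmd2 alone had an unadjusted p under 0.05, at a log2 difference of 0.56, while Psmd11 was at 0.34 and Psmb5 at 0.091. Psmb4 was at -0.28 ± 0.16 (adjusted p = 0.451), Psmd10 at -0.64 ± 0.37 (adjusted p = 0.459) and Psmd7 at -0.27 ± 0.24 (adjusted p = 0.643). Psmb6 was at 0.14 ± 0.12 (adjusted p = 0.648), Psmb7 at -0.16 ± 0.16 (adjusted p = 0.671), Psmd4 at 0.097 ± 0.20 (adjusted p = 0.854) and Psmd14 at 0.13 ± 0.18 (adjusted p = 0.766). The 5 genes named as higher were also the 5 whose anti-β8 pools all lay above the Mock pools, against 7.89% of all genes, and Psmb4 was below without overlap, against 8.4%. The 95% interval lay within 1 log2 unit of 0 for 30 of the 34 genes, all but Psmd2, Psmd1, Psmd5 and Psmd10, and within 0.5 for 7.

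**Figure D3:**
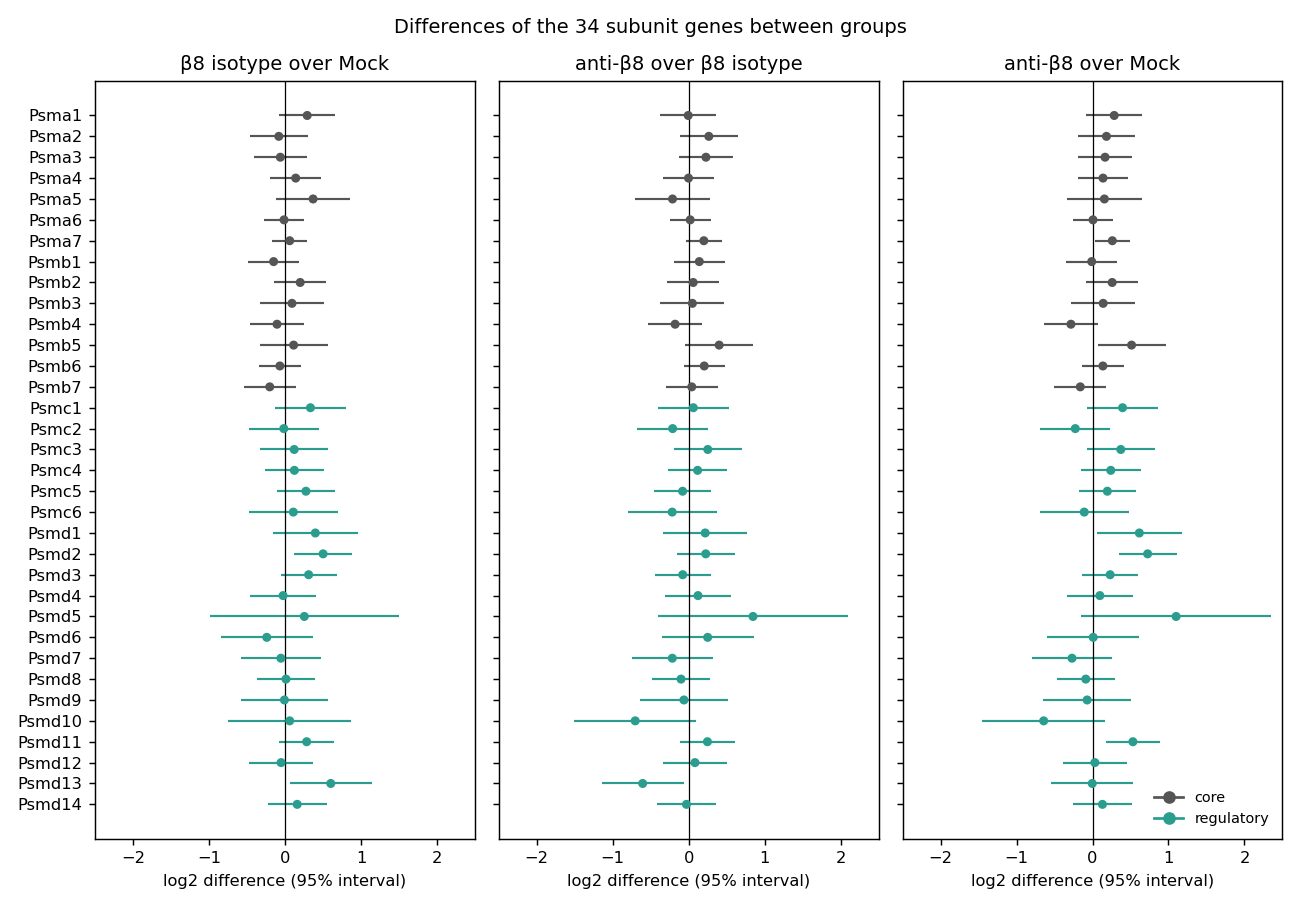
Log2 differences of the 34 genes with 95% intervals (points and lines; grey for core, green for Psmc and Psmd genes) for β8 isotype over Mock, anti-β8 over β8 isotype and anti-β8 over Mock. Most points lie within 0.5 of 0, Psmd2 is to the right of 0 in all 3 panels, Psmd13 is to the right in the left panel and to the left in the middle panel, and Psmd5 and Psmd10 have the widest intervals.

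The named genes lie at these places on GRCm38, from the GENCODE M21 annotation: Psmd2 (ENSMUSG00000006998, chr16:20651652-20663414, plus strand), Psmd11 (ENSMUSG00000017428, chr11:80428615-80473248, plus strand), Psmd13 (ENSMUSG00000025487, chr7:140881968-140898643, plus strand), Psmb5 (ENSMUSG00000022193, chr14:54614119-54618022, minus strand) and Psma7 (ENSMUSG00000027566, chr2:180036374-180042433, minus strand). The library kit does not mark strand, so reads of overlapping genes on opposite strands cannot be told apart. Exons of Psmd13 share 342 of 3377 bases (10.1%) with Sirt3 on the other strand. Sirt3 had 6.11 and 0.301 FPKM in anti-β8 pools 1 and 3 and was listed at about 0 in pool 2, with 4.97, 5.20 and 3.02 FPKM in the β8 isotype pools and 5.86, 1.90 and 6.10 FPKM in the Mock pools of the unnormalized table. Psmd13 itself had at least 38.2 normalized FPKM. Psmb7 shares 11.8% of its exon bases with Nek6, which reached at most 19.0 FPKM. The annotated pseudogenes named after Psmb5, Psmb6 and Psmb7 had at most 0.324 FPKM, although the sources used here do not say how the authors' counting divided reads between copies.

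Each inducible subunit that takes the place of a catalytic one had a higher ratio to it in every β8 isotype pool than in any Mock pool. Psmb8 over Psmb5 was 4.14, 2.36 and 2.58 in the anti-β8 pools, 4.87, 3.64 and 3.66 in the β8 isotype pools and 2.42, 3.02 and 2.75 in the Mock pools. Psmb9 over Psmb6 was 0.736, 0.348 and 0.563 in the anti-β8 pools, 0.853, 0.848 and 0.777 in the β8 isotype pools and 0.373, 0.591 and 0.472 in the Mock pools. Psmb10 over Psmb7 was 2.38, 1.79 and 2.96 in the anti-β8 pools, 2.33, 2.35 and 2.32 in the β8 isotype pools and 1.24, 1.55 and 1.496 in the Mock pools. The anti-β8 pools lay below the β8 isotype pools for Psmb9 over Psmb6 and above the Mock pools for Psmb10 over Psmb7, and overlapped otherwise. These ratios have no test, for the reason given for the ratio of core to regulatory genes.

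**Figure D4:**
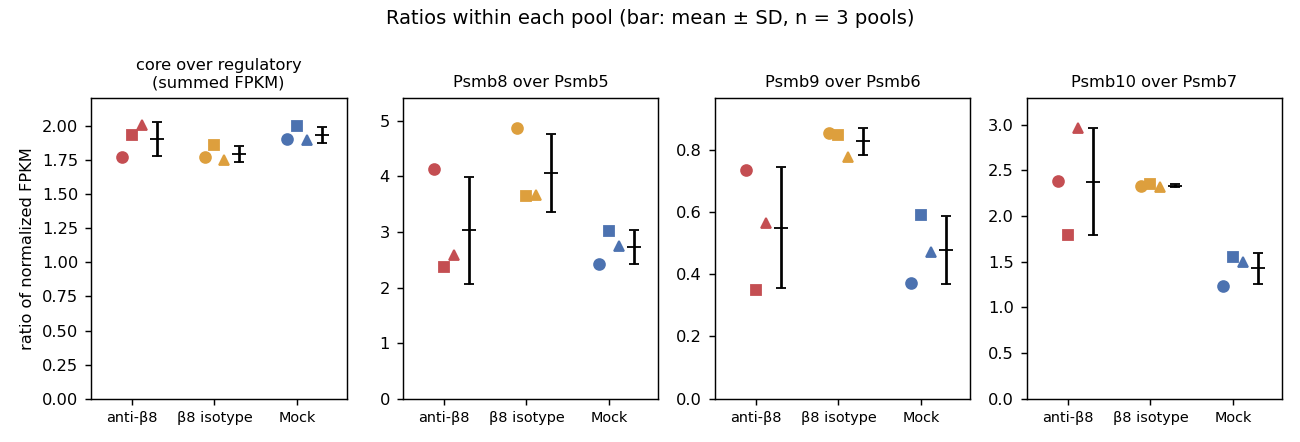
Ratios of normalized FPKM within each pool (circle, square and triangle for pools 1, 2 and 3; bars are mean ± SD, n = 3) for summed core over summed Psmc and Psmd genes and for each inducible over its constitutive catalytic subunit. The β8 isotype pools lie below the Mock pools in the leftmost panel and above them in the 3 others.

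The immunoproteasome list holds those 3 subunits with the activator genes Psme1 and Psme2. All 5 were measured. Of these, 0 were called in β8 isotype against Mock, where 5 of 5 were higher at an unadjusted p under 0.05, against 2.99% of all genes. Among them were Psme2 at a log2 difference of 0.55 ± 0.11 (adjusted p = 0.229), Psmb8 at 0.68 ± 0.15 (adjusted p = 0.273) and Psmb9 at 0.74 ± 0.24 (adjusted p = 0.615). In anti-β8 against β8 isotype 0 of 5 reached that level in either direction, against 3.97% of all genes higher and 6.2% lower. Psmb9 was at -0.45 ± 0.24 (adjusted p = 0.540), Psme2 at 0.14 ± 0.11 (adjusted p = 0.658) and Psme1 at 0.091 ± 0.12 (adjusted p = 0.802). In anti-β8 against Mock, Psme2 rose to 776 ± 79.7 FPKM in anti-β8, against 478 ± 22.6 FPKM in Mock, a log2 difference of 0.69 ± 0.11 (adjusted p = 0.0389). It was the single gene of the list called, where 0.183% of all genes were. That call held in 3 of 18 alternatives, with adjusted p between 0.0156 and 0.275, and Psme2 has a near copy, Psme2b, between which reads may have been divided. Psmb8 was at 0.63 ± 0.15 (adjusted p = 0.127) and Psme1 at 0.43 ± 0.12 (adjusted p = 0.197).

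Assembly and accessory factors build the particles or bind them. Of 16 tested, 0 passed the threshold in any comparison, and at an unadjusted p under 0.05 there were 0 in β8 isotype against Mock and 0 in anti-β8 against β8 isotype. At that level 1 was higher and 1 lower in anti-β8 against Mock, against 6.09% and 7.87% of all genes. In β8 isotype against Mock the smallest p belonged to the core chaperone Psmg1 at 0.98 ± 0.52 (adjusted p = 0.978), the core maturation factor Pomp at 0.35 ± 0.23 (adjusted p = 0.9995) and the lid subunit Sem1 at -0.21 ± 0.15 (adjusted p = 0.9995). In anti-β8 against β8 isotype they belonged to Akirin2, which guides proteasomes into the nucleus, at -0.73 ± 0.37 (adjusted p = 0.512), the core chaperone Psmg2 at -0.76 ± 0.51 (adjusted p = 0.602) and the proteasome-bound thioredoxin Txnl1 at 0.33 ± 0.23 (adjusted p = 0.607). Akirin2 measured 43.3, 13.6 and 22.9 FPKM in anti-β8 pools 1, 2 and 3 and 34.5, 49.8 and 38.1 FPKM in the β8 isotype pools. Only anti-β8 pools 2 and 3 were thus below the β8 isotype pools. In anti-β8 against Mock, Psmg1 was at 1.22 ± 0.52 (adjusted p = 0.335), Sem1 at -0.36 ± 0.15 (adjusted p = 0.338) and Akirin2 at -0.56 ± 0.37 (adjusted p = 0.525).

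The list of regulators holds the factors that bind the promoter elements printed above and the enzymes that act on them, and 0 of its 11 genes passed the threshold in any comparison. At an unadjusted p under 0.05, 0 reached that level in β8 isotype against Mock. In anti-β8 against β8 isotype 3 were lower, against 6.2% of all genes, and in anti-β8 against Mock 2 were lower, against 7.87%. Ngly1, which removes sugars from Nfe2l1 and so allows its activation, averaged 4.78 ± 4.13 FPKM in anti-β8, 13.2 ± 2.24 FPKM in β8 isotype and 17.6 ± 3.02 FPKM in Mock, with log2 differences of -1.78 ± 0.68 (adjusted p = 0.445) over β8 isotype and -2.17 ± 0.68 (adjusted p = 0.236) over Mock. Nfe2l2, the oxidative stress factor of the same family, averaged 10.5 ± 7.76 FPKM in anti-β8, 19.4 ± 5.51 FPKM in β8 isotype and 23.2 ± 1.84 FPKM in Mock, with -1.02 ± 0.46 (adjusted p = 0.488) over β8 isotype and -1.30 ± 0.46 (adjusted p = 0.269) over Mock. The small Maf genes followed, with Mafg at -0.63 ± 0.28 (adjusted p = 0.489) in anti-β8 against β8 isotype and Maff at -0.85 ± 0.42 (adjusted p = 0.390) in anti-β8 against Mock. In β8 isotype against Mock, Mafg was at 0.46 ± 0.28 (adjusted p = 0.9995), Nfe2l1 at 0.51 ± 0.34 (adjusted p = 0.9995) and Maff at -0.58 ± 0.42 (adjusted p = 0.9995). In anti-β8 pools 1, 2 and 3, Nfe2l2 measured 19.1, 8.29 and 4.03 FPKM and Ngly1 6.65, 0.0520 and 7.65 FPKM. Mafg measured 21.8, 22.2 and 26.4 FPKM there, and Maff 8.32, 4.26 and 12.6 FPKM. Among these genes only Nfe2l2 was lower in both pools 2 and 3, where few genes were detected, than in pool 1. The part of the low number of genes detected in these values was not tested.

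Of 13 genes that supply ubiquitin or deliver tagged proteins, 0 passed the threshold in any comparison, and at an unadjusted p under 0.05 there were 0 in β8 isotype against Mock and 0 in anti-β8 against β8 isotype. At that level 1 was higher and 1 lower in anti-β8 against Mock, against 6.09% and 7.87% of all genes. Vcp, the ATPase that extracts tagged proteins from complexes, was at 0.30 ± 0.16 (adjusted p = 0.522) in anti-β8 against β8 isotype and at 0.40 ± 0.16 (adjusted p = 0.310) in anti-β8 against Mock. Ubb, a ubiquitin gene, was at 0.13 ± 0.10 (adjusted p = 0.666) in anti-β8 against β8 isotype. In β8 isotype against Mock, Ubb was at -0.18 ± 0.10 (adjusted p = 0.991) and Rps27a, a fusion of ubiquitin with a ribosomal protein, at -0.17 ± 0.13 (adjusted p = 0.9995). Nploc4, a cofactor of Vcp, was at 0.74 ± 0.44 (adjusted p = 0.476) in anti-β8 against Mock. It measured 14.7, 43.3 and 14.6 FPKM in anti-β8 pools 1, 2 and 3 and 7.73, 13.8 and 16.9 FPKM in the Mock pools. Only anti-β8 pool 2 lay above all Mock pools.

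The proteasome genes did not all follow a common course over the pools. Pearson's r of a gene with the mean log2 value of the other proteasome genes, over 9 pools, was highest for the ATPase genes Psmc1 (0.934) and Psmc3 (0.893), and lowest for Psmd8 (-0.567), Psmd10 (-0.491), Psmd7 (-0.463) and Psmd13 (-0.396). Outside the 34 genes, the profiles most like their mean over the 9 pools included those of Psmb10 (r = 0.973, rho = 0.967), Add1 (r = 0.955, rho = 0.817), Tmem263 (r = 0.950, rho = 0.917) and Dtx3l (r = 0.947, rho = 0.8). These are descriptions over pools that differ in group and in the number of genes detected. Without anti-β8 pools 2 and 3 the r was 0.977 for Psmb10, 0.856 for Add1, 0.958 for Tmem263 and 0.899 for Dtx3l.

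Lists of other genes were read from the same model. Of 10 cell cycle genes, 8 were higher in β8 isotype than in Mock at an unadjusted p under 0.05, against 2.99% of all genes. None passed the adjusted threshold, and their median log2 difference was 1.15. Markers of other cell types are given by their summed unnormalized FPKM. The 7 fibroblast markers summed to 18.7 to 65.9 FPKM in anti-β8, 48.5 to 153 FPKM in β8 isotype and 7.31 to 9.91 FPKM in Mock, and none of the 7 was at 0 in all libraries. The 7 B and plasma cell markers summed to 104 to 203 FPKM in anti-β8, 42.4 to 141 FPKM in β8 isotype and 19.2 to 74.5 FPKM in Mock. The 10 myeloid markers, of which Itgam has 2 rows, summed to 395 to 738 FPKM in anti-β8, 205 to 723 FPKM in β8 isotype and 288 to 571 FPKM in Mock. The 7 erythroid and platelet markers summed to 0 to 126 FPKM in anti-β8. They summed to 32.6 to 40.8 FPKM in β8 isotype and 62.1 to 315 FPKM in Mock. The 7 tumour and epithelial markers summed to 28.7 to 133, 56.0 to 92.1 and 33.0 to 54.4 FPKM in the same order. The 5 CD8 and NK markers summed to 46.9 to 60.9, 32.3 to 68.1 and 32.5 to 47.6 FPKM. The 4 endothelial markers summed to 11.9 to 14.3, 8.90 to 12.7 and 11.4 to 13.6 FPKM. Of 38 marker genes tested, over all the cell type lists and with the 6 Treg markers among them, 0 were called in any comparison in limma. In either direction, 10, 9 and 14 had an unadjusted p under 0.05 in β8 isotype against Mock, anti-β8 against β8 isotype and anti-β8 against Mock. Of these, 1 (higher), 2 (lower) and 1 (higher) were Treg markers. Of all genes, 2.99%, 3.97% and 6.09% were higher at that level in these comparisons, in the same order. The shares that were lower were 2.58%, 6.2% and 7.87%. The part of these other cell types in the values of the proteasome genes was not tested.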

How the data were processed

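RNA sequencing libraries of 9 Treg pools were analysed, 3 per group. Per the labels' protocols, full-length cDNA was made with a SMART-Seq v4 kit and libraries with Nextera XT. The deposited values are FPKM made by the authors, per the file headers, once unnormalized and once normalized; the highest value of the normalized table is the same in every library (8195). Tools in the submitters' processing notes, listed there without order or role, are RSEM 1.3.1, STAR 2.6.1a, Cufflinks, Picard and Trim Galore 0.5.0, and the build is GRCm38. Count models were not used, because FPKM hold no counts, and the depth is unknown.

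The normalized table has no symbols. They were taken by gene ID from the unnormalized one, in which 16409 of 16409 IDs were found and 1 row with shifted cells was left out. A gene was kept if 3 or more of the 9 libraries had 1 FPKM or more, and log2(FPKM + 1) was fitted with limma 3.58.1 (R 4.3.3; trend and robust settings, two-sided) as a model of the 3 group means over all 9 libraries, with Benjamini-Hochberg adjustment over 12555 genes and a threshold of 0.05. Differences are on this scale, which understates changes of low genes. The model was tested on simulated data in which a gene had the same spread in every library. The real anti-β8 pools spread more widely than the others, so that test does not cover this feature of the data. Errors of log2 differences are SE.

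Members and lists were chosen with earlier results of these data known. Named are, in each comparison, the 3 genes of smallest p in each direction, with Psmb5, Psmb6, Psmb7, Psmd4 and Psmd14 always, the 3 of smallest p of each pathway list, the 5 genes of most similar profile and at most 4 promoters; Psmd1 and the intervals were named after their values were seen. Each comparison was refitted under 18 alternatives. No protein sequence was used here. The values of some genes that the lists and the naming rule cover are not reported here.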

Additional observations from a re-analysis of the deposited data

How the results depend on the processing

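Under each of the 18 alternatives to the main model, 0 of the 34 proteasome genes were called in each of the 3 comparisons. The smallest adjusted p of any of them in limma was 0.0501, for Psmd2 in anti-β8 against Mock without anti-β8 pool 1. The number of all genes called depended on the settings, and the cause was not tested. In β8 isotype against Mock (1 gene) it was 0 with the unnormalized table scaled to equal medians, 29 with only the 6 libraries compared, 0 without trend and robust settings, 111 with array weights, 2 with the replicate number as a block and 30 without anti-β8 pools 2 and 3. In anti-β8 against β8 isotype (8 genes) it was 2 with the unnormalized table, 2 with equal medians, 3 with a pseudocount of 0.1, 3 with only the 6 libraries compared, 3 without trend and robust settings and 2 with the block. In anti-β8 against Mock (23 genes) it was 15 with no filter, 13 without trend and robust settings, 14 with array weights and 15 with the block. The pool numbers are not stated to pair the samples. The correlation of deviations between same-numbered pools ran from -0.040 to 0.046, which does not settle whether such pools were handled together. Leaving out 1 pool at a time gave 1 to 2, 2 to 142 and 9 to 323 genes in these 3 comparisons, with 142 and 323 without anti-β8 pool 1. It gave 0 proteasome genes throughout. The medians over the 34 genes then ran from 0.050 to 0.12, from -0.021 to 0.098 and from 0.067 to 0.19. Those over the core genes ran from -0.020 to 0.054, from 0.012 to 0.14 and from 0.017 to 0.21, and those over the Psmc and Psmd genes from 0.12 to 0.17, from -0.073 to 0.067 and from 0.084 to 0.16. With equal medians, the core median was -0.11 in β8 isotype against Mock, and in anti-β8 against β8 isotype the medians were 0.20 over the 34 genes, 0.21 over the core genes and 0.15 over the Psmc and Psmd genes. In the unnormalized table the median of all genes was -0.20 in anti-β8 against β8 isotype and -0.15 in anti-β8 against Mock, and the 34 genes lay 0.29 and 0.32 above it. Without anti-β8 pools 2 and 3 the core median was 0.065 in anti-β8 against Mock. Signs turned for several named genes, and not only for those with small differences. In the main model Psmb5 was at 0.40 in anti-β8 against β8 isotype, and Psmd7 was at -0.27 in anti-β8 against Mock. In anti-β8 against β8 isotype, Psmd14 was at 0.085 with equal medians, Psmb7 at -0.012 with array weights and at -0.069 without anti-β8 pools 2 and 3, and Psmb5 at -0.023 without them. In anti-β8 against Mock without them, Psmb6 was at -0.065 and Psmd7 at 0.24. Leaving out 1 pool turned Psmd4 in β8 isotype against Mock (-0.095 to 0.049), in anti-β8 against β8 isotype (-0.097 to 0.30) and in anti-β8 against Mock (-0.12 to 0.27), and in anti-β8 against β8 isotype Psmb7 (-0.051 to 0.094) and Psmd14 (-0.13 to 0.031). Psme2 was tried under the same alternatives after its adjusted p was seen, and kept its direction in all 18.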
